A study of Mus musculus with 18 samples.

Results

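The Nr4a genes, Nr4a1, Nr4a2 and Nr4a3, encode a small family of nuclear receptors, and all 3 were found by symbol among the 21638 genes of the deposited count table. They were followed in cortical endothelial cells sorted from adult mouse brain as CD31-positive cells lacking CD41 and CD45. The 18 libraries fell into 6 groups of 3. Sham ipsilateral, sham contralateral, MCAO ipsilateral and MCAO contralateral libraries came from mice whose genotype is given as WT, where MCAO stands for occlusion of the middle cerebral artery, which models ischaemic stroke. The other 2 groups were MCAO ipsilateral libraries from mice labelled Hdac2 ECKO or Ezh2 ECKO, meaning a deletion in endothelial cells, made with Hdac2 or Ezh2 lox alleles and Cdh5CreERT2, a tamoxifen-activated Cre recombinase driven by the endothelial Cdh5 promoter. Tamoxifen at 75 mg per kg is listed for every group, with 5 doses in the study's design text, and cells were taken on day 7. The labels do not say whether libraries came from separate mice, so p-values measure only the spread between these libraries, which may be technical.

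Nr4a receptors are called orphan receptors. No hormone is needed to switch them on, so their activity follows mainly how much of them a cell makes. They are immediate early genes: growth factors such as VEGF, cyclic AMP acting through CREB, and calcium acting through MEF2 factors induce them quickly and without new protein synthesis. In endothelium, Nr4a1 (also called Nur77) is known as a VEGF-induced factor of angiogenesis, Nr4a2 (Nurr1) is best known from dopamine neurons and from repressing inflammatory genes, and Nr4a3 (NOR-1) is known from growing vascular cells. On the mouse genome (GRCm38) Nr4a1, ENSMUSG00000023034.7, lies on the forward strand of chromosome 15 at 101254269 to 101274795. Nr4a2, ENSMUSG00000026826.13, lies on the reverse strand of chromosome 2 at 57106830 to 57124003, and Nr4a3, ENSMUSG00000028341.9, on the forward strand of chromosome 4 at 48045153 to 48086447. Each count covers a whole gene.

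The promoters are shown because cyclic AMP induction of this family runs through CREB, whose short recognition element is the CRE half-site. The sequences are those of RefSeq (GRCm38.p6), which matched all 3 genes, read 5′ to 3′ along the gene and ending before any annotated exon. Capitals mark CRE half-sites, TGACG on the gene's strand or its complement CGTCA, and where 2 of them overlap both count.
Nr4a1, chr15:101266596-101266845, forward strand: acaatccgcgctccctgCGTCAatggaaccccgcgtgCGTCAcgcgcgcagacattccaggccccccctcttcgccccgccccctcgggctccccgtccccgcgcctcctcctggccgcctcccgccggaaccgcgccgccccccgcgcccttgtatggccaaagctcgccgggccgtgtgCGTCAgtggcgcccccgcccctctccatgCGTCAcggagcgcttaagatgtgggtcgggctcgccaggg
Nr4a2, chr2:57124004-57124253, reverse strand: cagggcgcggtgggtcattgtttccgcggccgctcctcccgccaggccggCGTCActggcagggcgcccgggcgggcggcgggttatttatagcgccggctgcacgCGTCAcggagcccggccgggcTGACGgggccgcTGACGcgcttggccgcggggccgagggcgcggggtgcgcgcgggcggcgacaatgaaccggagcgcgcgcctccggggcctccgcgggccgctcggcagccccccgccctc
Nr4a3, chr4:48045055-48045152, forward strand: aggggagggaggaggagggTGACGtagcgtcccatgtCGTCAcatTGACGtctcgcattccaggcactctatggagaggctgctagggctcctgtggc
The Nr4a1 stretch ends at a start site 12577 bases inside the gene's outermost annotated start, and the Nr4a3 stretch of 98 bases ends before an annotated first exon, so 3 of its 4 half-sites are shown.

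In the window of 250 bases before to 50 bases after the RefSeq start site, each of the 3 Nr4a promoters held 4 half-sites. They lay at bases -233, -213, -69 and -40 for Nr4a1, at -200, -144, -123 and -111 for Nr4a2, and at -231, -213, -205 and -147 for Nr4a3, counted from the start site to the first base on the gene's strand. At least 1 half-site was present in 20.8% of 32851 mouse promoters of the same length and at least 4 in 0.231% of them. These are GC-rich promoters (72.3%, 81.7% and 64.7% G or C, against a median of 52.7%). Among the 9690 promoters with at least 60% G or C, 31.6% held at least 1 half-site and 0.557% at least 4. The full CRE TGACGTCA, the NBRE AAAGGTCA to which Nr4a proteins bind, and the CArG box of serum response factor were not found on either strand of the 3 windows, and they occurred in 1.79%, 1.51% and 1.63% of all promoters. A letter match is a description of these windows and was not measured as binding.

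Levels are given as CPM, counts scaled to a common library total with TMM, a correction for differences in library composition. Library totals ran from 25791401 to 57576255 counts. The endothelial markers (12 of 12 measured, none at 0 throughout a group) summed to between 8006 and 27659 CPM in every library. Red cell markers ranged from 70.0 to 671 CPM in the Ezh2 ECKO libraries and from 49274 to 297820 CPM in the Hdac2 ECKO libraries, and between 19214 and 159415 CPM elsewhere. Neither targeted gene was clearly lower than in MCAO ipsilateral libraries in the group labelled for its deletion. Hdac2 had its lowest group mean in the libraries labelled Hdac2 ECKO, 76.8 ± 16.7 CPM (SD, n = 3). In MCAO ipsilateral libraries it was 82.9 ± 14.0, with overlap. Between the 2 deletion labels Hdac2 did not overlap, at 57.6 to 87.9 CPM in Hdac2 ECKO against 118 to 156 in Ezh2 ECKO libraries. Ezh2 went against its label: it measured 8.41 to 19.7 CPM in the libraries labelled Ezh2 ECKO against 4.44 to 7.84 in MCAO ipsilateral, with no overlap. The labels do not say which part of each gene is lox-flanked, and counts of whole genes need not show the loss of a part. These values therefore do not settle whether the deletions took place, and the groups are named below by their labels only. MCAO contralateral replicate 1 and Ezh2 ECKO replicate 2 stood apart. Their median correlations with the other libraries were 0.802 and 0.835, against 0.886 to 0.944 for the rest, and their summed counts on 1466 olfactory and vomeronasal receptor genes, which serve as a measure of background reads, were 1889 and 2083 CPM against 152 to 716.

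Nr4a1 and Nr4a2 were made at similar levels in sham endothelium, and Nr4a3 was scarce. Per kilobase of gene model, Nr4a1 stood at 21.5 ± 5.75 CPM (SD, n = 3) in sham ipsilateral libraries, Nr4a2 at 20.5 ± 0.763 and Nr4a3 at 0.568 ± 0.298. In sham contralateral libraries the values per kilobase were 15.2 ± 3.20 for Nr4a1, 15.0 ± 2.49 for Nr4a2 and 0.944 ± 0.620 for Nr4a3. Nr4a3 therefore made up 0.557% to 1.86% of the summed family level per kilobase in sham ipsilateral libraries and 1.13% to 5.75% in sham contralateral ones. Background reads, 0.0419 to 0.103 CPM per kilobase of receptor gene in these sham ipsilateral libraries, were below the Nr4a3 level in each of them.

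**Figure D1:**
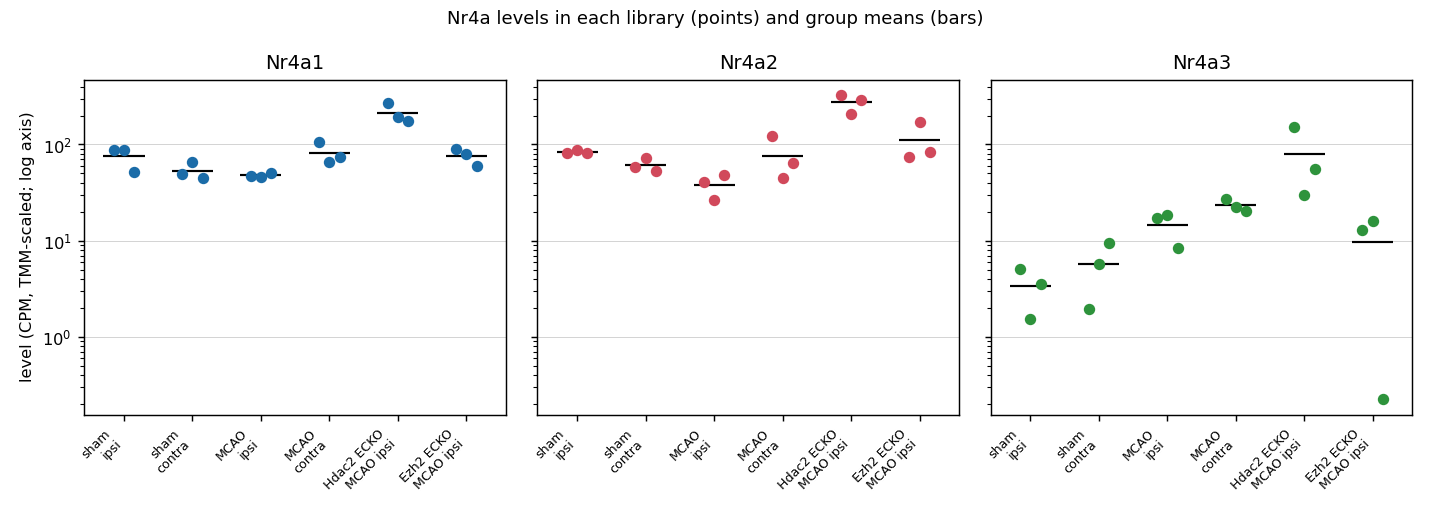
Level of each Nr4a gene in every library (points, CPM on a log axis; 3 libraries per group) with the group mean (bar). Nr4a1 and Nr4a2 are lowest by mean in MCAO ipsilateral and highest in Hdac2 ECKO libraries, and Nr4a3 is lowest by mean in sham libraries, with 1 Ezh2 ECKO library at 0.224 CPM.

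Over the 6 groups the order of the means differed between the members below the top place. Nr4a1 ran from Hdac2 ECKO (213 ± 49.6 CPM) through MCAO contralateral (81.4 ± 21.5), Ezh2 ECKO (75.8 ± 15.1), sham ipsilateral (75.5 ± 20.2) and sham contralateral (53.3 ± 11.2) to MCAO ipsilateral (47.8 ± 2.65), and only the first step was free of overlap between neighbours. Nr4a2 ran from Hdac2 ECKO (276 ± 61.1 CPM) through Ezh2 ECKO (110 ± 54.2), sham ipsilateral (83.3 ± 3.09), MCAO contralateral (76.6 ± 39.8) and sham contralateral (61.1 ± 10.1) to MCAO ipsilateral (38.2 ± 11.0), with no overlap at the first and the last step. Nr4a3 ran from Hdac2 ECKO (78.8 ± 64.0 CPM) through MCAO contralateral (23.2 ± 3.34), MCAO ipsilateral (14.7 ± 5.52), Ezh2 ECKO (9.79 ± 8.43) and sham contralateral (5.65 ± 3.71) to sham ipsilateral (3.40 ± 1.79), with no overlap at the first and the second step. Neighbours with overlapping values are not shown to differ. In whole-population RNA, fewer cells making a gene and less of its RNA per cell cannot be told apart.

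The members were chosen by symbol, with their counts in Hdac2 ECKO against MCAO ipsilateral libraries already known. Any comparison that uses one of those groups is therefore given for the members as a description, with the log2 fold change and its standard error (SE) and with no p-value. The 3 comparisons that use neither group are tested with edgeR's quasi-likelihood F-test, adjusted by Benjamini-Hochberg over all 17094 genes tested, and a gene is called at an adjusted p-value under 0.05.

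On the side of the occlusion Nr4a1 and Nr4a2 lay below sham while Nr4a3 lay above it. Nr4a1 measured 46.5, 46.0 and 50.8 CPM in the MCAO ipsilateral libraries and 87.3, 87.1 and 52.3 CPM in the sham ipsilateral ones. All 3 MCAO values were below all 3 sham values, by a narrow margin at the sham library with 52.3 CPM, and the log2 fold change was -0.66 ± 0.32 (SE). Nr4a2 measured 40.3, 26.3 and 47.9 CPM after occlusion and 81.8, 86.9 and 81.2 CPM in sham. The Nr4a2 groups were clearly apart, with a log2 fold change of -1.13 ± 0.39. Nr4a3 measured 17.0, 18.6 and 8.37 CPM after occlusion and 5.11, 1.55 and 3.53 CPM in sham. Its lowest occluded library was above its highest sham library, at a log2 fold change of 2.11 ± 0.88, a 4.32-fold ratio of the means. The values of all 3 members thus did not overlap between these groups, which was so for 27.7% of the 17094 genes. Directions for the members held in each of the 14 alternative analyses of this comparison. Summed markers of 5 of the 10 cell types listed also did not overlap in this comparison. Endothelial markers were at 17421 to 27659 CPM in MCAO ipsilateral against 11370 to 14102 CPM in sham ipsilateral libraries, and neuron markers at 127 to 183 against 57.7 to 111 CPM. Microglia markers were at 78.6 to 86.2 against 34.1 to 43.6 CPM, platelet markers at 34.6 to 38.0 against 16.7 to 22.6 CPM, and pericyte and smooth muscle markers lower, at 38.0 to 88.6 against 97.2 to 151 CPM. Their part in the Nr4a values was not tested.

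The contralateral side asks whether the hemisphere opposite the occlusion differed from sham. There Nr4a3 was again the member with the larger difference, and 0 of the 3 members were called. Nr4a3 measured 26.9, 22.4 and 20.4 CPM in MCAO contralateral libraries and 1.94, 5.65 and 9.36 CPM in sham contralateral ones. The groups did not overlap, as for 9.65% of genes tested, and in 3.64% the occluded group was the higher. The log2 fold change was 2.04 ± 0.88 (unadjusted p = 0.0303, edgeR adjusted p = 0.920). No gene of the 17094 was called here by edgeR (0%), 754 had an unadjusted p under 0.05 (4.41%), and DESeq2 called 26 genes, none of them a member (DESeq2 adjusted p for Nr4a3 = 0.422, the lowest over its 14 alternatives, with 0.999 the highest). Without MCAO contralateral replicate 1, the library with high background reads, the Nr4a3 log2 fold change was 1.93. Markers of pericytes and smooth muscle were lower in MCAO contralateral libraries with no overlap (12.4 to 60.4 against 86.7 to 173 CPM), as were those of astrocytes (33.4 to 54.3 against 57.8 to 91.2 CPM), and their part in the Nr4a values was not tested.

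Nr4a1 measured 105.8, 65.2 and 73.3 CPM in the MCAO contralateral libraries and 49.5, 66.0 and 44.5 CPM in the sham contralateral ones. The groups overlapped at 65.2 and 66.0 CPM, and the log2 fold change of 0.61 ± 0.32 was not called (edgeR adjusted p = 0.920). Without MCAO contralateral replicate 1 it was 0.40. Nr4a2 measured 121.1, 44.5 and 64.0 CPM against 58.3, 72.3 and 52.6 CPM, with a log2 fold change of 0.33 ± 0.38 (edgeR adjusted p = 0.928). The Nr4a2 direction rested on a single library: without MCAO contralateral replicate 1 the log2 fold change was -0.15.

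Comparing hemispheres, MCAO libraries held less of each member on the ipsilateral side by mean. Nr4a1 was at 46.0 to 50.8 CPM ipsilaterally and 65.2 to 105.8 CPM contralaterally, a log2 fold change of -0.77 ± 0.32 with no overlap. Nr4a3 was at 8.37 to 18.6 against 20.4 to 26.9 CPM, a log2 fold change of -0.66 ± 0.85, also with no overlap. Nr4a2 overlapped, at 26.3 to 47.9 against 44.5 to 121.1 CPM (-1.004 ± 0.39), and its value without MCAO contralateral replicate 1 was -0.53. No overlap of this kind was found in 5.36% of genes, and with the ipsilateral side lower in 1.88%. In sham mice edgeR called 0 of the 3 members between the sides, none with an unadjusted p under 0.05, and 0 of all 17094 genes (0%). Among all genes 317 (1.85%) had an unadjusted p under 0.05, and DESeq2 called 6, none of them a member. The sham log2 fold changes, ipsilateral minus contralateral, were 0.50 ± 0.32 for Nr4a1, 0.45 ± 0.38 for Nr4a2 and -0.73 ± 0.85 for Nr4a3 (edgeR adjusted p = 1.00 for each). Of the 3, Nr4a2 alone did not overlap between the sham sides (81.2 to 86.9 against 52.6 to 72.3 CPM), which was so for 15.4% of genes. Between the sham sides, microglia, neuron, red cell and platelet markers were lower ipsilaterally with no overlap. Between the MCAO sides, astrocyte markers were higher and oligodendrocyte markers lower ipsilaterally with no overlap, and the part of these markers in the Nr4a values was not tested.

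**Figure D2:**
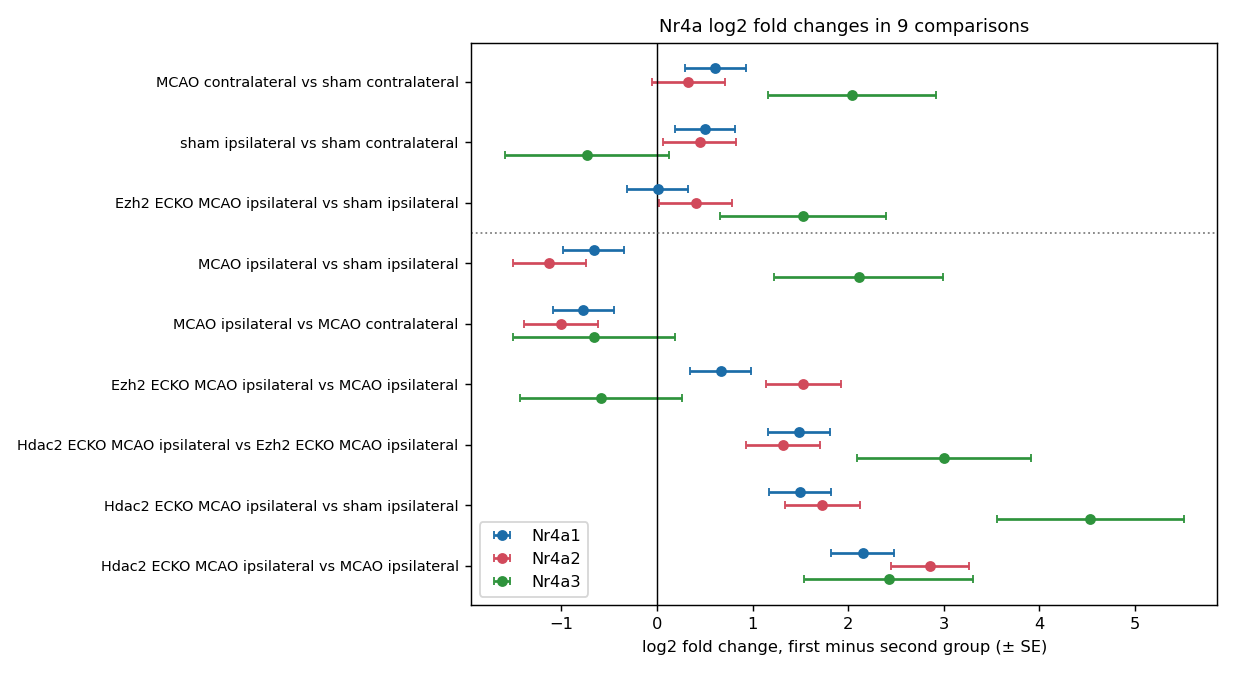
Log2 fold change of each Nr4a gene (points) with its SE (bars) in 9 comparisons, the first named group minus the second. Above the dotted line are the 3 tested comparisons, where no member was called, and below it the 6 given as a description, where all values of the 3 Hdac2 ECKO comparisons lie above 1.

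The libraries labelled Hdac2 ECKO held the most RNA of all 3 members. Nr4a1 measured 269.3, 191.7 and 177.0 CPM there and Nr4a2 measured 327.5, 208.6 and 292.1 CPM. Nr4a3 measured 151, 30.0 and 55.2 CPM, so that its replicates differed far more than those of the other members. Each of these values was above all values of that member in the 5 other groups. Against MCAO ipsilateral libraries, the comparison of the deletion with the same injury, the log2 fold changes were 2.15 ± 0.33 for Nr4a1, 2.85 ± 0.41 for Nr4a2 and 2.42 ± 0.89 for Nr4a3. As ratios of the means these were 4.45-fold, 7.23-fold and 5.37-fold. Nr4a1 and Nr4a2 were the 2 genes of 17094 that edgeR called here (0.0117%), which is the value through which they were chosen. With the 2 groups alone 0 genes were called, and leaving out 1 library gave 0 to 18. Neither call therefore held in every alternative. Of the members 3 of 3 did not overlap, as for 19.9% of genes. Without Hdac2 ECKO replicate 1 the Nr4a3 log2 fold change was 1.47 and that of Nr4a1 was 1.91. Endothelial markers were lower in the Hdac2 ECKO libraries with no overlap (12156 to 16999 against 17421 to 27659 CPM), and their part in the Nr4a values was not tested.

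The same libraries against the other groups gave smaller differences for Nr4a1 and Nr4a2. Against sham ipsilateral libraries the log2 fold changes were 1.49 ± 0.32 for Nr4a1, 1.73 ± 0.39 for Nr4a2 and 4.53 ± 0.98 for Nr4a3. Nr4a3 had the lowest sham level, so that its ratio of means reached 23.2-fold, and without Hdac2 ECKO replicate 1 its log2 fold change was 3.60. Against Ezh2 ECKO libraries they were 1.49 ± 0.32, 1.32 ± 0.39 and 3.01 ± 0.91. That last value, of Nr4a3, was 2.05 without Hdac2 ECKO replicate 1 and 2.41 without Ezh2 ECKO replicate 3. None of the members overlapped in either comparison, as for 15.3% and 12.1% of genes respectively. Red cell markers were higher in the Hdac2 ECKO libraries by median (251309 CPM, against 47430 in MCAO ipsilateral and 49417 in sham ipsilateral libraries), with overlap in both cases. Against sham ipsilateral libraries, pericyte and smooth muscle markers were lower (19.6 to 68.3 against 97.2 to 151 CPM), and neuron markers (131 to 182 against 57.7 to 111 CPM) and microglia markers (60.5 to 80.6 against 34.1 to 43.6 CPM) higher, with no overlap. Against Ezh2 ECKO libraries, neuron and red cell markers were higher with no overlap. The part of these markers in the Nr4a levels was not tested. With no library scaling, for depth or for composition, the log2 fold changes from MCAO ipsilateral libraries were 1.72 for Nr4a1 and 2.43 for Nr4a2. The median of all genes then shifted by -0.42.

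The libraries labelled Ezh2 ECKO showed another pattern, with Nr4a1 and Nr4a2 overlapping their sham levels. Nr4a1 measured 89.2, 78.9 and 59.4 CPM and Nr4a2 measured 74.3, 172.7 and 84.3 CPM, the high Nr4a2 value being that of replicate 2, the library with high background reads. Against MCAO ipsilateral libraries neither overlapped, with log2 fold changes of 0.67 ± 0.32 for Nr4a1 and 1.53 ± 0.39 for Nr4a2. No overlap was found in 29% of genes in that comparison. Without Ezh2 ECKO replicate 2 these were 0.61 and 1.04. Markers of 5 cell types were lower in the Ezh2 ECKO libraries with no overlap: endothelial (8006 to 12340 against 17421 to 27659 CPM), neuron (47.4 to 79.1 against 127 to 183 CPM), microglia (48.1 to 60.9 against 78.6 to 86.2 CPM), red cell (70.0 to 671 against 38263 to 65440 CPM) and platelet (17.1 to 29.5 against 34.6 to 38.0 CPM). Against sham ipsilateral libraries microglia markers were higher and red cell markers lower with no overlap. The part of these markers in the Nr4a values was not tested. Against sham ipsilateral libraries 0 of the 3 members were called, while 7 genes of 17094 were (0.041%), 1115 (6.52%) had an unadjusted p under 0.05, and 13.7% did not overlap. The tested log2 fold changes were 0.01 ± 0.32 for Nr4a1 (edgeR adjusted p = 0.997), 0.41 ± 0.38 for Nr4a2 (edgeR adjusted p = 0.943) and 1.53 ± 0.87 for Nr4a3 (edgeR adjusted p = 0.841). DESeq2 called 189 genes in this comparison and none of the members. For Nr4a2 the 95% interval of the difference ran from -0.34 to 1.16, and without Ezh2 ECKO replicate 2 the value was -0.074.

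Nr4a3 was uneven within the Ezh2 ECKO group. It measured 13.0 and 16.2 CPM in replicates 1 and 2 and 0.224 CPM, or 8 counts, in replicate 3. Per kilobase the last value was 0.0373 CPM, below that library's background level of 0.102 CPM per kilobase, while Nr4a1 and Nr4a2 stood at 16.9 and 20.8 CPM per kilobase in the same library. Against MCAO ipsilateral libraries Nr4a3 overlapped, at -0.58 ± 0.85, and the difference was -0.043 without replicate 3 and -1.20 without replicate 2. Against sham ipsilateral libraries, where the difference was 1.53, it was 2.10 without replicate 3 and 0.94 without replicate 2.

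**Figure D3:**
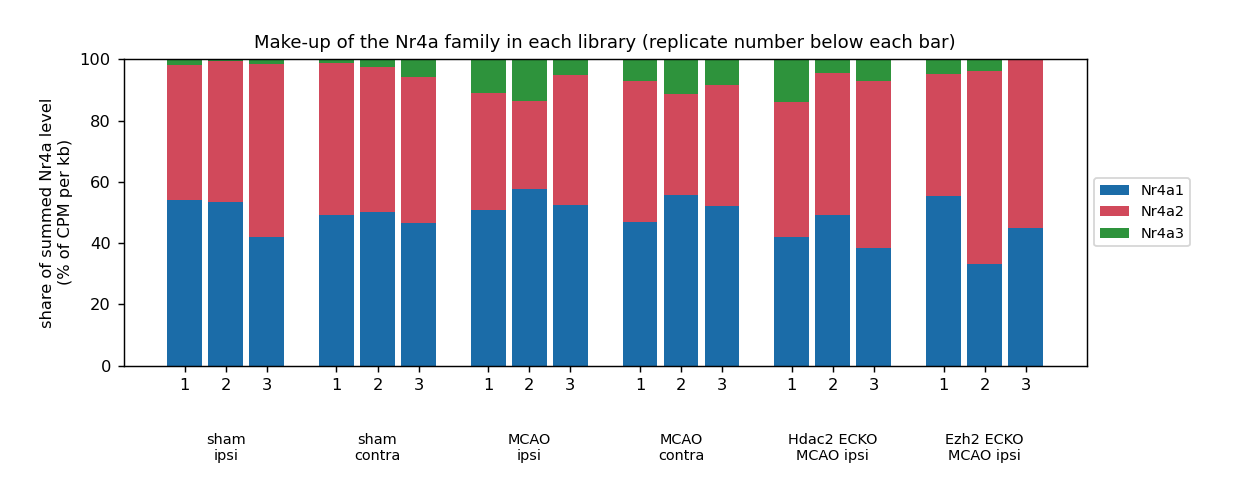
Share of the summed Nr4a level per kilobase held by each gene in every library (stacked bars, in percent; replicate numbers below). Nr4a3 takes 5.05% to 13.7% in MCAO ipsilateral and 6.97% to 11.2% in MCAO contralateral libraries, and 0.557% to 1.86% in sham ipsilateral ones.

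The make-up of the family varied between groups and within them. Nr4a2 ran at 0.811 to 1.34 times Nr4a1 per kilobase in sham ipsilateral libraries, 0.947 to 1.02 times in sham contralateral, and 0.495 to 0.815 times in MCAO ipsilateral ones. In MCAO contralateral libraries the ratio was 0.590 to 0.990, which overlaps the MCAO ipsilateral and both sham ranges. In Hdac2 ECKO libraries the ratio was 0.941 to 1.43, and in Ezh2 ECKO libraries it was 0.720 to 1.89. The Nr4a1 to Nr4a3 ratio per kilobase was 25.2 to 95.9 in sham ipsilateral and 4.21 to 10.4 in MCAO ipsilateral libraries. It was 8.12 to 43.5 in sham contralateral libraries, which overlaps the MCAO ipsilateral range, 4.96 to 6.71 in MCAO contralateral and 8.32 to 453 in Ezh2 ECKO libraries. In the Hdac2 ECKO libraries that ratio was 3.04 to 10.9, a range that overlaps the MCAO ipsilateral one. The summed family level per kilobase was 22.7 to 27.7 CPM in MCAO ipsilateral libraries, against 111 to 183 CPM with the Hdac2 ECKO label, so the total differed between these groups while the Nr4a3 share (4.51% to 13.8% in Hdac2 ECKO) overlapped.

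Nr4a1 and Nr4a2 varied together and Nr4a3 less so. Over the 18 libraries the correlation of log2(CPM + 1) between Nr4a1 and Nr4a2 was 0.894 by Pearson and 0.847 by Spearman. It was 0.504 after group means were removed and 0.700 over the 15 libraries outside the Hdac2 ECKO group. For Nr4a1 and Nr4a3 Pearson's r was 0.634, and for Nr4a2 and Nr4a3 it was 0.455, and outside the Hdac2 ECKO group these were 0.136 and -0.180. These are descriptions, since the libraries share their groups and composition and include those through which Nr4a1 and Nr4a2 were chosen.

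The members were chosen with their counts in Hdac2 ECKO and MCAO ipsilateral libraries known, and those libraries enter r. A high rank of Nr4a1 and Nr4a2 for each other is therefore no independent result. Among the 7813 tested genes whose mean reached 10 CPM, Nr4a2 ranked 1 in likeness to Nr4a1. After it came Slc38a2, a neutral amino acid transporter (r = 0.853), Pcf11, a factor of transcript cleavage and termination (0.814), the transcription factor Maf (0.813) and Csrnp2 (0.757). For Nr4a2 the first place went to Slc38a2 (0.925), followed by Nr4a1, by Amd2 (0.889) and Amd1 (0.861), which encode S-adenosylmethionine decarboxylase of polyamine synthesis, and by Pcf11 (0.842). Amd1 and Amd2 are near-identical copies, so their separate counts are uncertain. For Nr4a3 the 5 were Cited2, which encodes a binding partner of CBP and p300 (0.839), the small Maf gene Mafk (0.800), Tmem184a (0.796), the acyl-CoA synthetase gene Acsl5 (0.792) and the small Maf gene Maff (0.792). Cited2, Mafk and Tmem184a shared with Nr4a3 their lowest value, in Ezh2 ECKO replicate 3. By Spearman's rho 3 of the 5 genes stayed for each member. With group means removed 0 stayed for Nr4a1 and Nr4a2 and 1 stayed for Nr4a3, which was Cited2 (r = 0.915).

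**Figure D4:**
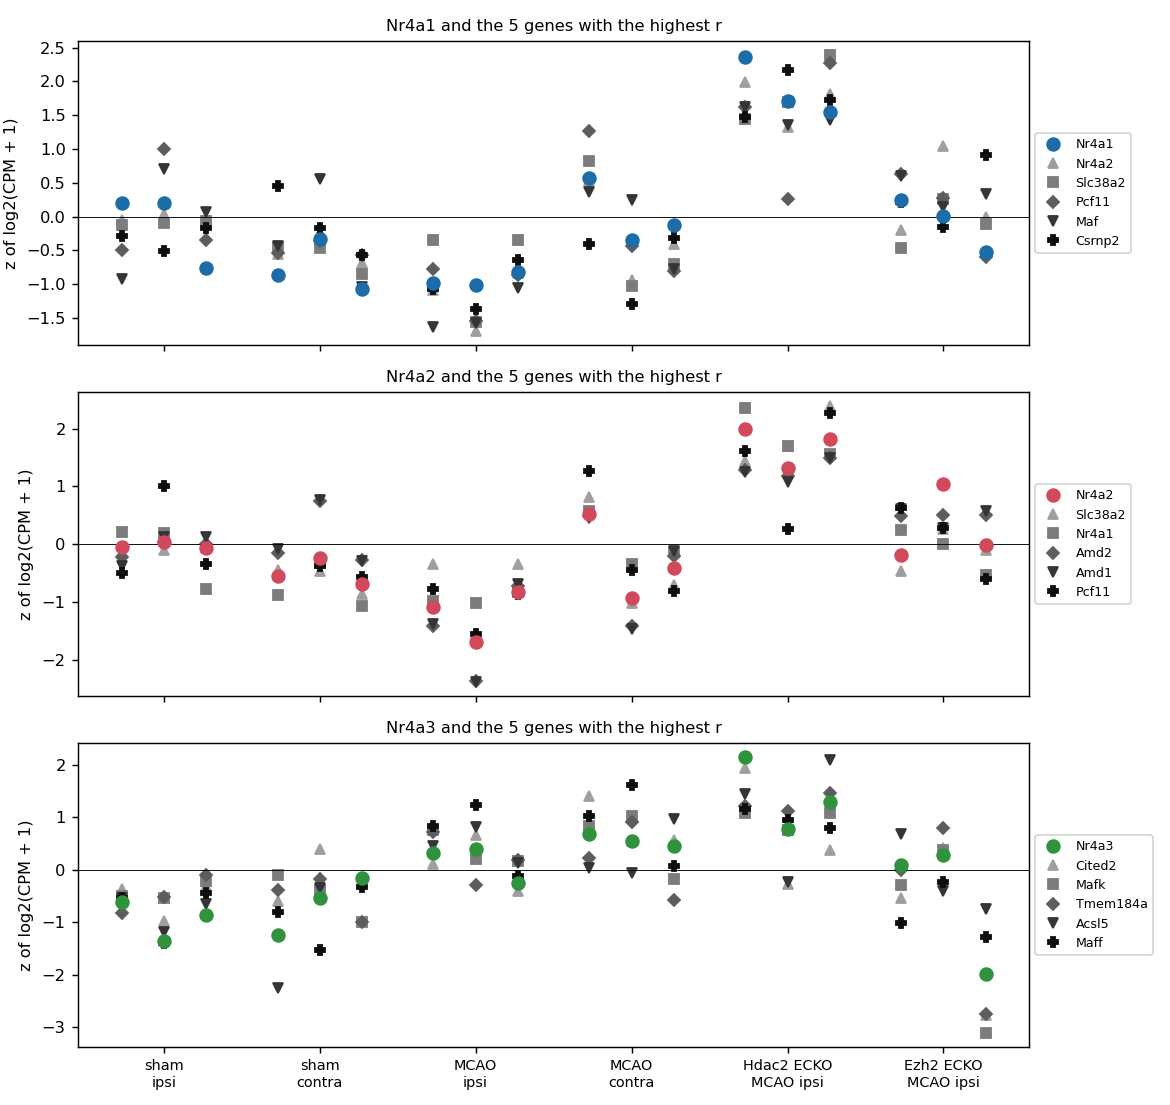
Standardised log2(CPM + 1) of each Nr4a gene (large coloured points) and of the 5 genes with the highest Pearson r to it (grey symbols) in the 18 libraries, 3 per group, in replicate order. Nr4a1 and Nr4a2 are highest in Hdac2 ECKO libraries, and Nr4a3 is lowest in Ezh2 ECKO replicate 3, as are Cited2, Mafk and Tmem184a.

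Other immediate early genes were compared next, since they answer to the same signals. Of 26 such genes 24 were tested. Against MCAO ipsilateral libraries, edgeR called 0 of the 24 in Hdac2 ECKO libraries, with 12 at an unadjusted p under 0.05, and DESeq2 called 3 as higher (Egr3, Fosb and Fosl2). Over all 17094 genes edgeR called 2, 1683 had such a p and DESeq2 called 244. A log2 fold change above 0 was found for 19 of the 24, and 11 were higher with no overlap (9.54% of all genes were). Their median log2 fold change was 0.80 against 0.11 over all genes, and the members stood at 2.15, 2.85 and 2.42. With no library scaling the list's median was 0.38, with 16 above 0. Fos, a subunit of the AP-1 factor, had a log2 fold change of 1.18 ± 0.39 (1281 ± 203 against 566 ± 290 CPM; edgeR adjusted p = 0.394). Dusp1, a MAP kinase phosphatase, had 0.80 ± 0.38 and Klf4, a flow-responsive factor, had 0.85 ± 0.28, neither of them called. Against sham ipsilateral libraries 24 of 24 lay above 0 in Hdac2 ECKO libraries with a median of 0.82, against -0.01 over all genes, and with no library scaling 18 lay above 0 with a median of 0.40. By edgeR 0 were called, with 7 at an unadjusted p under 0.05, and DESeq2 called 3 (Ier3, Maff and Fosl2). Among all 17094 genes these counts were 0, 1221 and 246.

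After occlusion the immediate early genes lay on both sides of 0, with more of them above it on the contralateral side. In MCAO ipsilateral against sham ipsilateral libraries 11 of the 24 lay above 0 and the median was -0.09, as was that of all genes. Fos had -0.71 ± 0.38 and Klf4 -0.83 ± 0.28, the latter with no overlap. By edgeR 0 of the 24 were called and 8 had an unadjusted p under 0.05 (3 higher and 5 lower), and DESeq2 called Ier3 as higher. Among all 17094 genes edgeR called 0, and 1210 had such a p. On the contralateral side 17 of 24 lay above 0, with a median of 0.41 against 0.17. An unadjusted p under 0.05 was found there for 6 of the 24, all higher, and for 4.41% of all genes. Neither edgeR nor DESeq2 called any of the 24 on that side. In Ezh2 ECKO against MCAO ipsilateral libraries 13 of 24 lay above 0, and at an unadjusted p under 0.05 there were 6 higher and 4 lower. DESeq2 called 3 as higher (Jun, Egr2 and Fosb) and Ier3 as lower. Among all 17094 genes 3287 had an unadjusted p under 0.05 there, and DESeq2 called 1642. By edgeR, which called 1.46% of all genes, 1 of the 24 fell: Ier3, a stress-induced survival gene, had a log2 fold change of -1.76 ± 0.44 (edgeR adjusted p = 0.0480). The call on Ier3 held in 7 of 14 alternatives and in 2 of the 6 that left out a library, those without MCAO ipsilateral replicate 3 or Ezh2 ECKO replicate 1.

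**Figure D5:**
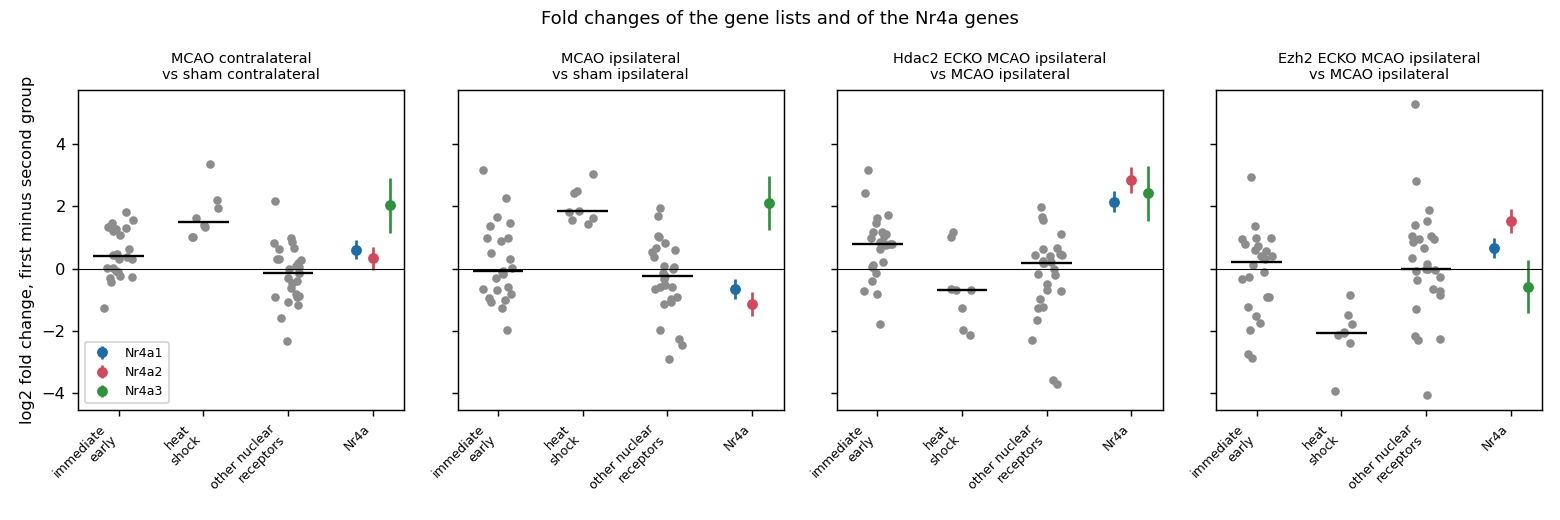
Log2 fold changes of the tested genes of 3 lists (grey points, black bar at the median) and of the Nr4a genes (coloured points, bars for SE) in 4 comparisons. In Hdac2 ECKO against MCAO ipsilateral libraries the immediate early median is 0.80 and the 3 Nr4a genes lie above 2, and in MCAO ipsilateral against sham ipsilateral libraries the heat shock median is 1.84.

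In the pathway that induces Nr4a genes, edgeR called 0 genes in the 9 comparisons, among 27 genes of the cyclic AMP, calcium, CREB, MEF2 and SRF list, 11 tested upstream receptors and 10 CREB-responsive genes. Summed over the comparisons, an unadjusted p under 0.05 was found 16 times in the first list, 13 times in the second and 9 times in the last, and DESeq2 made 3, 2 and 0 calls. Per comparison, 317 to 3287 of all 17094 genes had such a p, edgeR called 0 to 250 and DESeq2 called 6 to 1642. Crem, a CREB family gene, measured 353 ± 236 CPM in MCAO ipsilateral against 125 ± 21.4 CPM in sham ipsilateral libraries, and its replicates overlapped. Ptgs2, the inducible cyclooxygenase, measured 52.0 ± 13.8 against 16.8 ± 8.71 CPM there with no overlap (log2 fold change 1.63 ± 0.71, edgeR adjusted p = 0.667). Among receptors, Kdr, the main VEGF receptor, measured 196 ± 84.3 CPM in MCAO ipsilateral, 388 ± 88.3 in sham ipsilateral and 493 ± 93.1 in Ezh2 ECKO libraries. DESeq2 called Kdr, as well as the VEGF co-receptor gene Nrp1, as higher in Ezh2 ECKO than in MCAO ipsilateral libraries, which edgeR did not (edgeR adjusted p = 0.0527 for Kdr and 0.146 for Nrp1). Flt1, another VEGF receptor, stayed between 1964 and 2364 CPM by group mean. The regulatory subunit gene Prkar1a, the calcineurin gene Ppp3ca and the phosphodiesterase gene Pde4b were called by neither tool.

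Genes of the proteins with which Nr4a receptors act were not called by edgeR either. Of 10 partner and corepressor genes 9 were tested. Over the 9 comparisons edgeR called 0, with an unadjusted p under 0.05 found 5 times, and DESeq2 made 2 calls. Per comparison, 317 to 3287 of all 17094 genes had such a p and DESeq2 called 6 to 1642. The tested genes included Ncor1 and Rcor1, which encode corepressor scaffolds, and Hdac2 itself. The DESeq2 calls were Hdac2, higher in Ezh2 ECKO than in MCAO ipsilateral libraries, and Rxrb, lower in Hdac2 ECKO than in Ezh2 ECKO libraries. Of 14 genes named elsewhere as Nr4a targets, edgeR called 0 in Hdac2 ECKO against MCAO ipsilateral libraries, 2 had an unadjusted p under 0.05 and DESeq2 called Vcam1 alone. Among all 17094 genes 1683 had such a p and DESeq2 called 244. The median log2 fold change of the 14 was 0.36 against 0.11 over all genes, and it turned to -0.11 with no library scaling. Vcam1, a leukocyte adhesion molecule, measured 210 ± 34.0 CPM in Hdac2 ECKO libraries against 103 ± 7.88 CPM after occlusion alone, with no overlap (log2 fold change 1.02 ± 0.32, edgeR adjusted p = 0.394). Edn1, the endothelin gene, measured 237 ± 29.8 against 145 ± 31.7 CPM, also with no overlap and not called. In Ezh2 ECKO against MCAO ipsilateral libraries 6 of the 14 lay above 0. At an unadjusted p under 0.05 there were 1 higher and 1 lower. DESeq2 called Tox as higher and Nfkbia, which encodes an NF-kappa-B inhibitor, as lower. Among all 17094 genes 3287 had such a p there and DESeq2 called 1642. By edgeR, which called 1.46% of all genes, 1 of the 14 was called. It was Nfkbia, with a log2 fold change of -1.68 ± 0.42 (edgeR adjusted p = 0.0479). The Nfkbia call held in 5 of 14 alternatives and, of those that left out a library, only without MCAO ipsilateral replicate 3. The dopamine synthesis gene Th, a textbook Nr4a2 target in neurons, was listed at 0 in all 3 Hdac2 ECKO libraries.

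Other nuclear receptors lay on both sides of 0. In Hdac2 ECKO against MCAO ipsilateral libraries 14 of the 27 tested lay above 0, with a median of 0.17 that turned to -0.26 with no library scaling, 3 were higher and 8 lower with no overlap (9.54% and 10.3% of all genes were), and edgeR called 0. An unadjusted p under 0.05 was found for 4 of them, and DESeq2 called Nr2f2 as higher. Among all 17094 genes 1683 had such a p and DESeq2 called 244. The glucocorticoid receptor gene Nr3c1 measured 311 ± 72.0 against 195 ± 28.3 CPM with no overlap, the clock gene Nr1d2 measured 138 ± 19.0 against 122 ± 20.5 CPM, and Rora measured 85.7 ± 23.4 against 63.0 ± 18.8 CPM. In Ezh2 ECKO against MCAO ipsilateral libraries 13 of the 27 lay above 0. At an unadjusted p under 0.05 there were 4 higher and 5 lower, against 3287 of all 17094 genes. DESeq2 called 4 as higher (Nr1d2, Nr2f2, Nr3c1 and Pparg) and 5 as lower (Rarg, Thra, Nr1d1, Nr1h2 and Nr1h3), against 1642 of all genes. By edgeR, which called 1.46% of all genes, 2 of the 27 were called, both lower. They were Nr1d1, a clock repressor, with a log2 fold change of -2.30 ± 0.41 (edgeR adjusted p = 0.0208) and Nr1h2, an oxysterol receptor, with -2.26 ± 0.52 (edgeR adjusted p = 0.0379). These calls held in 9 and 4 of 14 alternatives. Of those that left out a library, the Nr1d1 call held in 2 of 6, without MCAO ipsilateral replicate 3 or Ezh2 ECKO replicate 1, and the Nr1h2 call in 1 of 6, without MCAO ipsilateral replicate 3.

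Heat shock genes, which answer to protein damage through another factor, were listed as a stress response apart from the Nr4a pathway. In MCAO ipsilateral against sham ipsilateral libraries 8 of 8 lay above 0 with a median log2 fold change of 1.84, and on the contralateral side 8 of 8 with a median of 1.51, with 0 called by edgeR on either side. An unadjusted p under 0.05 was found for 8 of them ipsilaterally and 6 contralaterally, and DESeq2 called 4 and 1 as higher. Over all 17094 genes 1210 and 754 had such a p, and DESeq2 called 69 and 26. In Ezh2 ECKO against MCAO ipsilateral libraries 0 of the 8 lay above 0, with a median log2 fold change of -2.06. An unadjusted p under 0.05 was found for 7 of them, all lower. DESeq2 called 5 as lower (Hspa8, Hspb1, Hspa1a, Hspa1b and Hsp90aa1). Over all 17094 genes 3287 had such a p and DESeq2 called 1642. By edgeR, which called 1.46% of all genes, 3 of the 8 were called, all lower. They were the chaperone genes Hspa8, Hsp90aa1 and Hspb1, with log2 fold changes of -2.08 ± 0.42, -1.78 ± 0.44 and -3.93 ± 0.74 (edgeR adjusted p = 0.0291, 0.0449 and 0.0248). Their calls held in 8, 3 and 8 of 14 alternatives, and among those that left out a library, Hsp90aa1 was called only without MCAO ipsilateral replicate 3, and Hspa8 and Hspb1 only without that library or without Ezh2 ECKO replicate 1. Hspa1a, the inducible chaperone gene, rose by 3.31 ± 0.62 on the log2 scale in Hdac2 ECKO against Ezh2 ECKO libraries (edgeR adjusted p = 0.0300), where 0.123% of genes were called, and kept that call in 7 of 14 alternatives, of which 1 left out a library, Hdac2 ECKO replicate 3.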

How the data were processed

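RNA of sorted cortical endothelial cells was sequenced from 18 libraries after ultra-low-input amplification. The authors deposited a table of whole-number counts per gene for 21638 genes, which its name calls normalized. Its library totals differ (25791401 to 57576255), so the values were taken as unscaled counts; between 77.3% and 89.4% of values from 1 to 20 were even, and halving them was tried as an alternative. The submitters' processing notes name FastQC, cutadapt, STAR, featureCounts, DESeq2 and the build mm10. Their settings, the annotation and the use of strand are not given in the sources used here.

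Groups came from the labels. Genes with at least 10 counts in at least 3 libraries (17094) were tested in 9 comparisons with edgeR 4.0.16 (TMM, quasi-likelihood F-test, 1 fit to all 6 groups, R 4.3.3), limma 3.58.1 being loaded with it. DESeq2 1.42.0, other scalings, no filter, a replicate block, the 2 groups alone, a background covariate and leaving out each library were alternatives. The SE is the absolute log2 fold change over the square root of F. Scripts were tested on simulated data. The 3 members and all lists were chosen with earlier results of these data known. Beside the members, the text names the 3 list genes of highest mean, up to 3 called genes per list and comparison, and the 5 genes most correlated with each member among tested genes whose mean reached 10 CPM. Other genes are named as small counts, after their values were seen. Gene positions are those of the deposited table after adding 1 to the start, and 21339 starts then equalled GENCODE M21.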

Additional observations from a re-analysis of the deposited data

Results flagged for a closer look

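These differences ran in opposite directions between groups. For Nr4a1, MCAO against sham gave a log2 fold change of -0.66 on the ipsilateral side and 0.61 on the contralateral side, a difference of -1.27, and this difference between sides was not tested. For Nr4a2, the ipsilateral against the contralateral side gave -1.004 in MCAO and 0.45 in sham libraries, a difference of -1.45, which was not tested either. The MCAO value of Nr4a2 rests partly on MCAO contralateral replicate 1, without which it was -0.53.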

How the results depend on the processing

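Of 378 alternative values of the members, 362 kept their direction and lay within the spread or on the same side of the threshold, 8 reversed and 8 moved further. No member was called in any of the 3 tested comparisons under any of the 14 alternatives. The Nr4a1 difference of Ezh2 ECKO from sham ipsilateral libraries, 0.01, was -0.26 with no library scaling, -0.045 with no low-count filter, -0.027 with the background covariate and -0.20 to 0.15 when 1 library was left out. Leaving out 1 library gave -0.074 to 0.63 for Nr4a2 in that comparison and -0.15 to 0.57 for Nr4a2 in MCAO contralateral against sham contralateral. With no library scaling, Nr4a1 was 0.39 in Ezh2 ECKO against MCAO ipsilateral, and Nr4a1 and Nr4a2 were 1.06 and 1.33 in Hdac2 ECKO against sham ipsilateral and 1.72 and 2.43 against MCAO ipsilateral libraries. No scaling shifted the median of all genes by -0.42 (Hdac2 ECKO against MCAO ipsilateral) to 0.22 (sham sides), and RLE scaling by -0.16 to 0.19. The background covariate gave 0.94 for Nr4a2 in Ezh2 ECKO against MCAO ipsilateral. Leaving out 1 library gave 1.91 to 2.23 for Nr4a1 and 1.47 to 2.76 for Nr4a3 in Hdac2 ECKO against MCAO ipsilateral libraries.

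Counts of called genes among all 17094 moved with the tool. DESeq2 called 26 genes in MCAO contralateral against sham contralateral, 6 between the sham sides, 189 in Ezh2 ECKO against sham ipsilateral, 69 in MCAO against sham ipsilateral, 6 between the MCAO sides, 1642 in Ezh2 ECKO against MCAO ipsilateral, 659 in Hdac2 ECKO against Ezh2 ECKO, 246 in Hdac2 ECKO against sham ipsilateral and 244 in Hdac2 ECKO against MCAO ipsilateral, where edgeR called 0, 0, 7, 0, 0, 250, 21, 0 and 2. For Ezh2 ECKO against sham ipsilateral the background covariate gave 12. For MCAO against sham ipsilateral the covariate gave 1, no filter 2 and the 2 groups alone 74. For Ezh2 ECKO against MCAO ipsilateral the covariate gave 13, the 2 groups alone 485, no scaling 44 and halved counts 435. For Hdac2 ECKO against Ezh2 ECKO the covariate gave 54, no filter 38, no scaling 8 and halved counts 32. For Hdac2 ECKO against sham ipsilateral the covariate gave 6, no filter 1, the 2 groups alone 8 and RLE scaling 2. For Hdac2 ECKO against MCAO ipsilateral the covariate gave 10, the 2 groups alone 0, no scaling 1, halved counts 5 and RLE scaling 4. Leaving out 1 library gave 0 to 1, 0 to 0, 3 to 15, 0 to 0, 0 to 0, 5 to 298, 9 to 73, 0 to 0 and 0 to 18 in the same order. The causes were not tested.

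With the replicate number as a block, 12 genes were called in Ezh2 ECKO against MCAO ipsilateral and 9 in Hdac2 ECKO against Ezh2 ECKO. Same-numbered libraries deviated together with r of 0.104, 0.210 and -0.0367 between the sham sides and 0.0140, 0.273 and -0.170 between the MCAO sides, so the numbers were not taken as a pairing.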
